A study of Rattus norvegicus with 36 samples.

Results

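Liver RNA from male Sprague Dawley rats given 94.3 or 943 mg/kg of the brominated flame retardant TBBPA-DBPE was compared with liver RNA from rats given 0.1, 0.94 or 9.4 mg/kg. The arrays were chosen by the dose in their titles, 6 at each dose, which gave 12 arrays at the high doses and 18 at the low doses. These 30 arrays are part of a series of 36, and the 6 vehicle arrays entered neither side of the comparison. All animals were 7 weeks old when dosing began, received TBBPA-DBPE in corn oil by gavage on 5 consecutive days, and were killed 1 day after the last dose. Corn oil and the NTP-2000 diet were common to every dose. The left lobe of the liver was taken as bulk tissue, so a change in the share of a cell type and a change in RNA per cell cannot be told apart. Each array was taken as 1 animal, since the labels number the replicates within a dose without naming animals.

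Hepatocytes make most of the body's cholesterol and fatty acids. When sterols in the endoplasmic reticulum run low, the escort protein SCAP carries SREBP transcription factors to the Golgi, where proteases release their active part. SREBP-2 mainly drives the enzymes of the mevalonate and cholesterol pathway, SREBP-1c mainly drives fatty acid synthesis, and both act together with the CCAAT-binding factor NF-Y on many of their promoters. Immediate early genes and ATF4, in contrast, report acute signalling and amino acid or protein-folding stress.

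The tissue label was checked against hepatocyte markers, which were bright in every liver. Alb, which encodes albumin, had a lowest, median and highest log2 signal of 14.35, 14.41 and 14.43 at the high doses, against 14.38, 14.41 and 14.42 at the low doses. The mean of the 19 measured hepatocyte markers was between 13.39 and 13.43 in the high-dose livers and between 13.36 and 13.42 in the low-dose livers. The 30 arrays had medians from 4.59 to 4.66 and pairwise correlations from 0.991 to 0.996, with a median of 0.994 both within a dose and between the high and low doses.

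No gene passed the test between the high and low doses. Each of 31042 probe sets was tested with limma on the difference between the mean of the 2 high doses and the mean of the 3 low doses, and 0 had a Benjamini-Hochberg adjusted p under 0.05, with a smallest adjusted p of 0.333. An ordinary linear model also called 0. At an unadjusted p under 0.05, 2077 probe sets (6.69%) differed, 1116 of them (3.6% of all) higher and 961 (3.1%) lower at the high doses. The limma count was also 0 for 94.3 mg/kg alone against the low doses (2284 probe sets, or 7.36%, at an unadjusted p under 0.05), for 943 mg/kg alone (1635, or 5.27%), for a slope on log10 dose (1701, or 5.48%) and among the 3 low doses (1364, or 4.39%). The single-dose comparisons share the 18 low-dose arrays. The standard error of the difference had a median of 0.0529 on the log2 scale, and the 95% interval excluded a 2-fold difference for 99.8% of probe sets. Only 29 probe sets (0.0934%) differed by 1.5-fold or more.

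Between the high and low doses, 1 of the 30 runs that each left out 1 array gave calls. Without 94.3 mg/kg replicate 1, limma called 6 probe sets between the high and low doses, namely those of Elovl6, Ccnl1, Net1 and Tekt4 and 2 of Pnpla3, with adjusted p values from 0.0486 to 0.0494. The count for 94.3 mg/kg alone against the low doses was 46 without that animal, 36 of them higher. It was 1 without 94.3 mg/kg replicate 5, 1 without 9.4 mg/kg replicate 1 and 2 without 9.4 mg/kg replicate 4. With all 30 arrays, therefore, the values below describe differences that did not pass the test. A gene is given by its brightest probe set naming 1 gene, which covers 14217 genes, of which 430 (3.02%) were higher and 498 (3.5%) lower at an unadjusted p under 0.05.

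The genes of cholesterol synthesis were higher as a group at both high doses. Of 21 listed genes 18 were measured, and 17 had a higher mean at the high doses, beside 50.8% of all genes. At an unadjusted p under 0.05, 16 of the 18 were higher, beside 3.02% of all genes, and 0 were lower. In 17 of the 18 the means at 94.3 and 943 mg/kg both lay above all 3 low-dose means, an order that 10.6% of all genes showed. The median difference was 0.27 on the log2 scale, with 0.26 at 94.3 mg/kg and 0.31 at 943 mg/kg, while the median of all genes was 0.0012. None passed after adjustment over all probe sets, where limma's adjusted p values of the 16 lay between 0.659 and 0.697. The 10 other probe sets of the 17 higher genes were all higher as well. The genes moved together from animal to animal, and the probe sets share the same livers, so these counts are not independent observations. The list was chosen with earlier results of these data known.

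Promoters of 4 genes are shown because they belong to the genes of the group with small p values. They are the 250 bases before the RefSeq gene start (build GRCr8), all on the minus strand: Lss at chr20:12118231-12118480, Mvd at chr19:67414975-67415224, Fdps at chr2:176804817-176805066 and Hsd17b7 at chr13:84722755-84723004. Capitals mark CCAAT, or ATTGG where the box lies on the opposite strand. A further match in Mvd starts at the end of the printed bases and runs past the gene start, so it is not marked.
Lss: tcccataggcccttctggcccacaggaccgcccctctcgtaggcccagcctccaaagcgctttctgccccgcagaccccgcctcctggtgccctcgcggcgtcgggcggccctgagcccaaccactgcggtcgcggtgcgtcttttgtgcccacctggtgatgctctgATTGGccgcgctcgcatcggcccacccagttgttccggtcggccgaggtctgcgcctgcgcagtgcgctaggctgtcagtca
Mvd: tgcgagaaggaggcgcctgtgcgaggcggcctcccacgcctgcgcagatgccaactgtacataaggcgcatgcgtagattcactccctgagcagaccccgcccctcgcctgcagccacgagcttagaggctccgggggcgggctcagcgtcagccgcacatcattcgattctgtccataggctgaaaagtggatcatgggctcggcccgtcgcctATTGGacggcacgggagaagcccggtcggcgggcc
Fdps: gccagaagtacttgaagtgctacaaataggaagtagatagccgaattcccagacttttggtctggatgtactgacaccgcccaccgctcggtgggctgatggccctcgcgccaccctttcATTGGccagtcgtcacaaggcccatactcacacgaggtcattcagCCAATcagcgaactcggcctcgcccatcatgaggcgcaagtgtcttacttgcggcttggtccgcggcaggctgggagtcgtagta
Hsd17b7: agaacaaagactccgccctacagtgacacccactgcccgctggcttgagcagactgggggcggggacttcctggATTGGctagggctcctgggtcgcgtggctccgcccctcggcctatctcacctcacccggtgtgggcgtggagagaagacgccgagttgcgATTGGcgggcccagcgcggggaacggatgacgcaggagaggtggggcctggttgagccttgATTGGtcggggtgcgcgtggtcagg
Both strands of windows of 300 bases, from 250 before to 50 after the start, were searched. CCAAT was found in 12 of the 15 cholesterol synthesis genes with a window (80.0%), beside 37.7% of all 27457 windows. At least 2 matches were found in 9 of the 15 (60.0%), beside 11.5% of all windows. The sterol regulatory element core searched, TCACNCCAC, was in 0 of the 15 and in 1.13% of all windows. Other forms of this element were not searched, so the count cannot show that these promoters lack sterol elements. These matches describe letters in a window, and Pmvk, Sqle and Fdft1 had no entry.

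In the mevalonate arm, Acat2 makes acetoacetyl-CoA, and Mvk, Pmvk and Mvd carry mevalonate to isopentenyl pyrophosphate. Mvd, the decarboxylase, had a lowest, median and highest log2 signal of 6.80, 7.84 and 8.77 at the high doses, against 6.60, 7.24 and 7.71 at the low doses. Of the 12 high-dose livers, 7 lay above every low-dose liver, and the others overlapped with them. The difference was 0.48 ± 0.145 (SE; n = 12 and 18; limma adjusted p = 0.659), or 1.40-fold. Pmvk was between 8.68 and 9.70, with a median of 9.17, at the high doses, against 8.50 to 9.25 with a median of 8.91 at the low doses, and differed by 0.29 ± 0.0906. Acat2 was higher by 0.40 and Mvk by 0.26. Idi1, the isomerase that activates isopentenyl pyrophosphate, was higher by 0.36. Fdps, which joins these units to farnesyl pyrophosphate, ran from 11.85 to 12.77 with a median of 12.40 at the high doses and from 11.68 to 12.39 with a median of 12.16 at the low doses. It differed by 0.25 ± 0.0791, and 11 of 12 high-dose livers lay above the low-dose median. Ggps1, which leads from farnesyl pyrophosphate to protein prenylation and away from sterols, was the exception, with a difference of -0.08 and with both high-dose means below the low-dose means. Its other probe sets gave -0.11 and -0.11.

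From squalene onward the differences were of similar size. Fdft1, squalene synthase, was higher by 0.23 and Sqle, squalene epoxidase, by 0.47. Sqle ran from 7.90 to 9.92 with a median of 9.16 at the high doses, against 7.54 to 9.25 with a median of 8.64 at the low doses, and 6 of the 12 lay above the low-dose range. Lss, which closes the ring to lanosterol, had a lowest, median and highest signal of 8.44, 9.19 and 9.98 at the high doses and of 7.97, 8.80 and 9.26 at the low doses. It differed by 0.43 ± 0.127 (limma adjusted p = 0.659), and 10 of 12 high-dose livers lay above the low-dose median. Among the enzymes that remove methyl groups and move double bonds, Hsd17b7 was higher by 0.43, Msmo1 by 0.40, Cyp51 by 0.22, Nsdhl by 0.19, Sc5d by 0.17 and Ebp by 0.16. Dhcr7, the last step, was higher by 0.30. Tm7sf2, a sterol reductase, was higher by 0.19 with an unadjusted p of 0.0598, and its difference at 94.3 mg/kg was 0.08 and at 943 mg/kg 0.30.

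**Figure D1:**
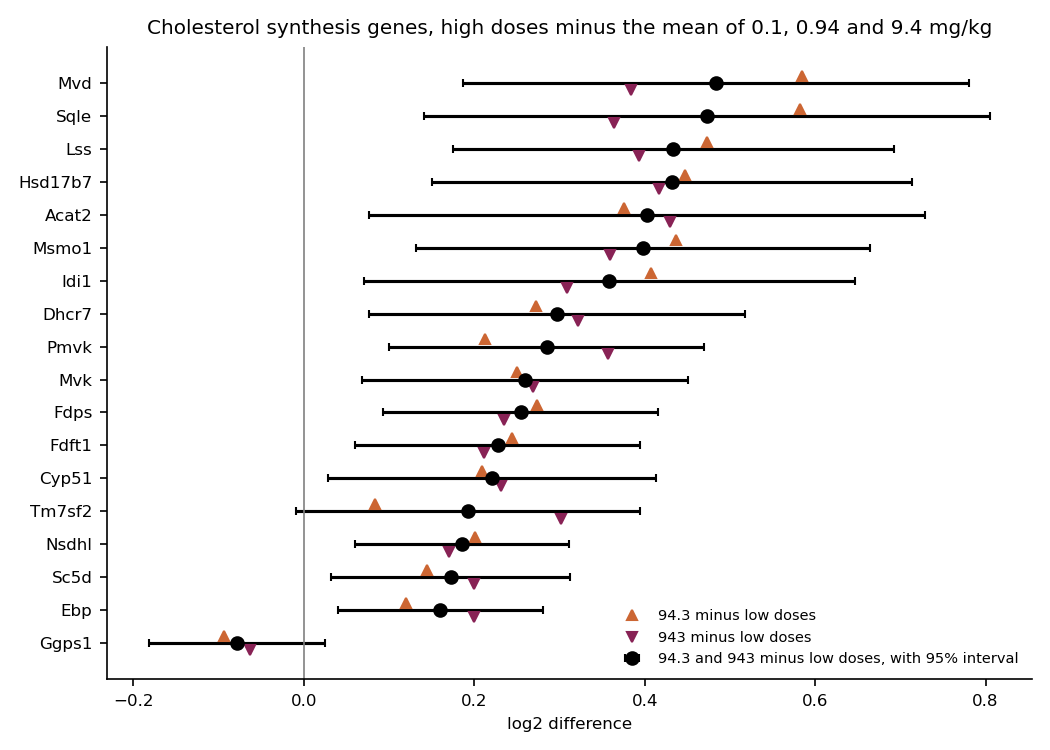
Log2 difference of each of the 18 measured cholesterol synthesis genes, with a 95% interval for both high doses against the 3 low doses (black points) and the values at 94.3 mg/kg and 943 mg/kg alone (orange and purple triangles). All genes but Ggps1 lie to the right of 0, and the interval of Tm7sf2 also reaches 0.

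The cholesterol synthesis genes moved together from animal to animal. Their mean log2 signal had a lowest, median and highest value of 9.27, 9.78 and 10.27 in the high-dose livers, against 8.88, 9.50 and 9.83 in the low-dose livers. Of the 12 high-dose livers, 5 lay above the low-dose range and 10 above the low-dose median. The spread within a high dose was wide, with an SD of 0.331 at 94.3 mg/kg and 0.347 at 943 mg/kg. All 18 genes lay above their median over the 30 arrays in 94.3 mg/kg replicate 3 and 943 mg/kg replicate 2, but only 1 did in 94.3 mg/kg replicate 1 and 943 mg/kg replicate 6. Low-dose livers did the same, with 18 of 18 in 0.94 mg/kg replicate 1 and 9.4 mg/kg replicate 2 and 0 in 0.94 mg/kg replicate 2.

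The group did not form a graded series over dose. Mean signals of the list were 9.51 in vehicle livers, 9.60 at 0.1 mg/kg, 9.41 at 0.94 mg/kg, 9.53 at 9.4 mg/kg, 9.80 at 94.3 mg/kg and 9.79 at 943 mg/kg. Set beside vehicle as a side check, the genes had a median difference of 0.30 at the high doses and -0.01 at the low doses. Of the 18, 17 were above vehicle at the high doses and 8 at the low doses. For some, low doses below vehicle made up part of the difference, as in Dhcr7 (0.16 and -0.14), Ebp (0.08 and -0.08) and Sc5d (0.10 and -0.08). The 0.94 mg/kg group was the lowest, and without it 10 of the 18 genes were higher at an unadjusted p under 0.05, with a median difference of 0.24.

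**Figure D2:**
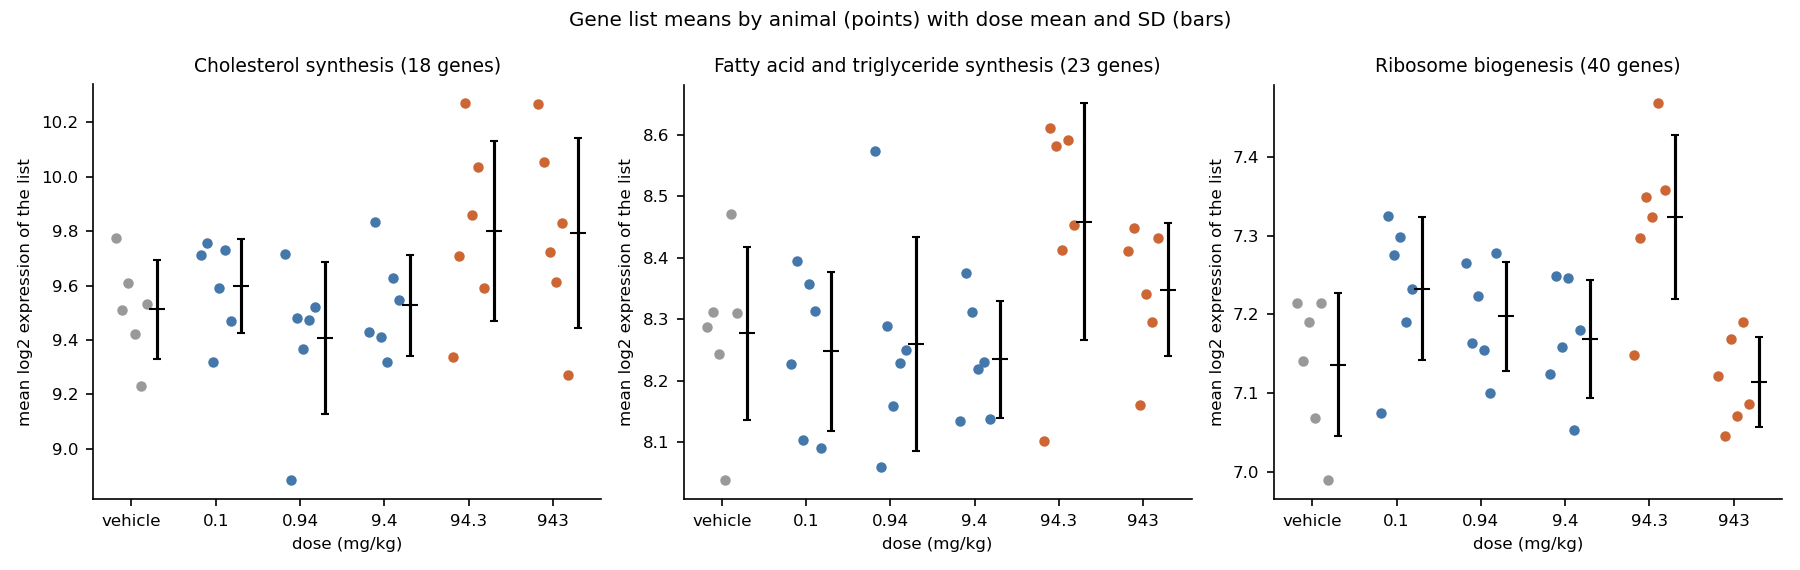
Mean log2 expression of the cholesterol synthesis, fatty acid and triglyceride synthesis and ribosome biogenesis lists in each animal (points; vehicle grey, low doses blue, high doses orange) with the mean and SD of each dose. For cholesterol synthesis, 5 high-dose livers lie above every low-dose liver, while ribosome biogenesis has a mean of 7.32 at 94.3 mg/kg and 7.11 at 943 mg/kg.

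Fatty acid and triglyceride synthesis was higher in part. All 23 listed genes were measured, and 17 were higher at the high doses, beside 50.8% of all genes. At an unadjusted p under 0.05, 8 were higher, beside 3.02% of all genes, and 0 were lower, beside 3.5%. The genes share the same livers, so these counts are not independent observations. The median difference was 0.11. Elovl6, which lengthens palmitate, had a lowest, median and highest log2 signal of 6.32, 7.12 and 8.23 at the high doses, against 5.80, 6.55 and 7.06 at the low doses. Of the 12 high-dose livers, 7 lay above the low-dose range, with a difference of 0.67 ± 0.148, or 1.59-fold (limma adjusted p = 0.599). Its other probe set differed by 0.61.

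Pnpla3, a lipid droplet acylhydrolase, ran from 3.23 to 5.69 with a median of 4.98 at the high doses, against 3.20 to 4.75 with a median of 3.95 at the low doses. Again 7 of 12 lay above the low-dose range, while 94.3 mg/kg replicate 1, at 3.23, lay near the bottom of it. The difference was 0.83 ± 0.215, or 1.77-fold (limma adjusted p = 0.656), and 1.00 without that animal. The low-dose mean of 3.98 lay below the median of every array, so the size of this difference is uncertain. The other Pnpla3 probe sets differed by 0.69 and 0.26. Of the enzymes that supply and build fatty acids, Acly, which makes acetyl-CoA from citrate, was higher by 0.38 ± 0.137, Acss2, which makes it from acetate, by 0.37 ± 0.132, and Fasn, the fatty acid synthase, by 0.35 ± 0.136. The citrate carrier Slc25a1 was higher by 0.12, the first enzyme of triglyceride assembly Gpam by 0.22 and the desaturase Fads2 by 0.16, these 3 named after their values were seen. Scd, the stearoyl-CoA desaturase, had the opposite sign. It ran from 8.32 to 10.70 with a median of 9.68 at the high doses, against 8.96 to 10.94 with a median of 9.85 at the low doses, and differed by -0.43 ± 0.221 (unadjusted p = 0.0592). In the 300-base windows, CCAAT was in 13 of the 17 genes of this list with an entry (76.5%), beside 37.7% of all windows. The 1 form of the sterol regulatory element searched was in 0 of the 17, beside 1.13% of all windows. Elovl6, Fasn, Dgat2, Acaca, Dgat1 and Mogat2 had no entry and were not searched.

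Regulators of the pathway differed less. Of 15 measured genes 11 were higher, beside 50.8% of all genes, and 1 was higher at an unadjusted p under 0.05, which is close to the 3.02% of all genes. The median was 0.05, and 0.03 without 943 mg/kg replicate 2. That gene was Scap, the SREBP escort. It ran from 7.55 to 8.17 with a median of 7.89 at the high doses, against 7.40 to 7.90 with a median of 7.69 at the low doses. Its difference was 0.21 ± 0.0598, and its other probe set gave 0.27 ± 0.0632. Srebf2, which encodes SREBP-2, was higher by 0.09 and Insig1, which retains SCAP in the endoplasmic reticulum, by 0.26. The sterol exporter Abcg8 was higher by 0.39 ± 0.264, and the SREBP protease gene Mbtps2 differed by -0.07. Against vehicle, Abcg8 differed by 0.02 at the high doses and by -0.37 at the low doses. Srebf1, named after its values were seen, was higher by 0.35 at 94.3 mg/kg and differed by -0.14 at 943 mg/kg.

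**Figure D3:**
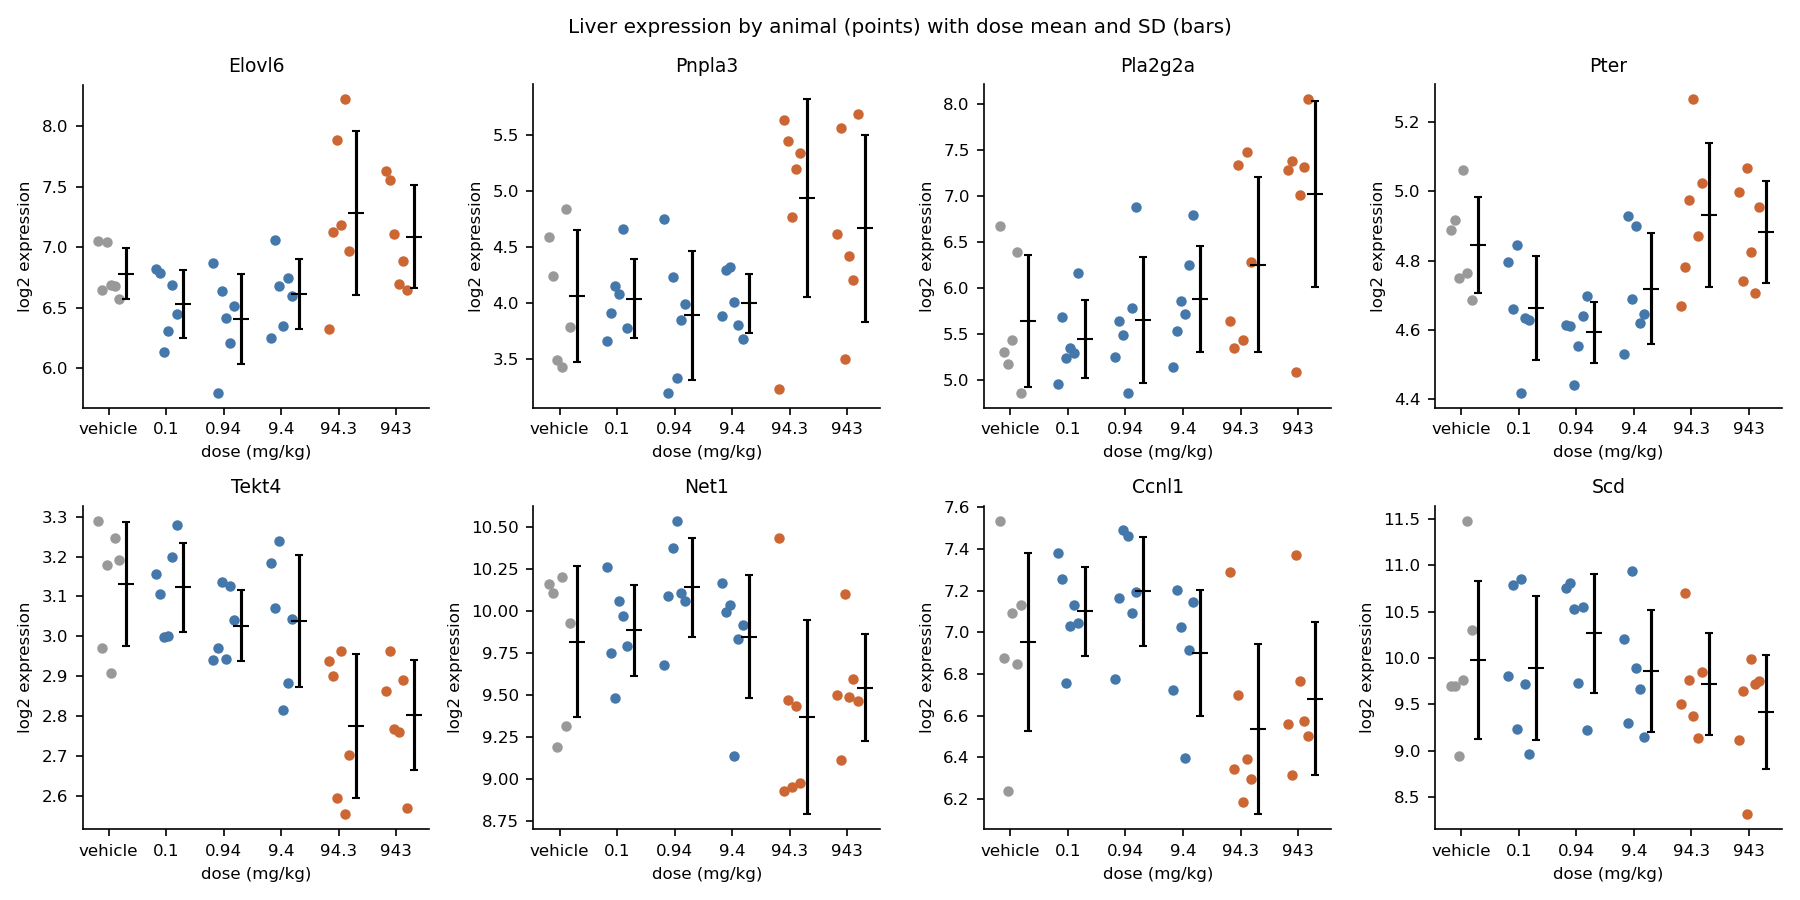
Log2 expression in each animal (points; vehicle grey, low doses blue, high doses orange) with the mean and SD of each dose, for genes higher (Elovl6, Pnpla3, Pla2g2a, Pter) and lower (Tekt4, Net1, Ccnl1, Scd) at the high doses. In Elovl6, Pnpla3 and Pla2g2a, 7 high-dose livers lie above the low-dose range, and 94.3 mg/kg replicate 1 lies at 3.23 for Pnpla3 and 10.43 for Net1.

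Among the other genes with the smallest p values that were higher, Pla2g2a, a secreted phospholipase, had the largest difference. It ran from 5.09 to 8.06 with a median of 7.15 at the high doses, against 4.86 to 6.88 with a median of 5.59 at the low doses. The difference was 0.98 ± 0.258, or 1.97-fold (limma adjusted p = 0.656), with 0.59 at 94.3 mg/kg and 1.36 at 943 mg/kg. Bambi, a decoy receptor for transforming growth factor beta, was higher by 0.35 ± 0.0906, Eepd1 by 0.24 and the RNA helicase gene Ddx31 by 0.22. Pter was above the low-dose median in all 12 high-dose livers and higher by 0.25, but its other probe set gave -0.05. Foxs1, Fosl2 and Crygc completed the 10 genes, and all 3 were dim, meaning that both group means lay below the median of every array. The other Fosl2 probe set differed by 0.01. Against vehicle, the high and low doses differed by 1.00 and 0.02 for Pla2g2a and by 0.26 and 0.02 for Eepd1. They differed by 0.21 and -0.14 for Bambi, 0.11 and -0.07 for Crygc and 0.09 and -0.06 for Foxs1. For Pter (0.06 and -0.19), Fosl2 (0.06 and -0.22) and Ddx31 (0.03 and -0.19), the high doses lay near vehicle and the low doses below it.

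Of the genes that were lower, Tekt4, a tektin of flagella, had the smallest p of all. It ran from 2.55 to 2.96 with a median of 2.81 at the high doses, against 2.81 to 3.28 with a median of 3.06 at the low doses. All 12 high-dose livers lay below the low-dose median, with a difference of -0.27 ± 0.0521 (limma adjusted p = 0.333), but the probe set was dim. Arrdc3, an arrestin-domain adaptor, ran from 9.34 to 10.87 with a median of 10.11 at the high doses, against 10.24 to 10.96 with a median of 10.54 at the low doses. Below the low-dose range lay 8 of 12, with a difference of -0.41 ± 0.11. Net1, an activator of RhoA, differed by -0.50, the splicing-related cyclin Ccnl1 by -0.46 and the ubiquitin ligase Topors by -0.21. Ptpn2, a tyrosine phosphatase, differed by -0.14, although its other probe set, which was dim, gave 0.02. The manganese exporter Slc30a10 differed by -0.17, with all 12 high-dose livers below the low-dose median. Tbpl1, a TBP-like factor, also differed by -0.17, with 11 of 12 below it. Dgkk and Vom1r90 were dim.

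Immediate early genes had a median of -0.06, which was -0.02 without 94.3 mg/kg replicate 2. Of 25 measured genes 10 were higher, beside 50.8% of all genes. At an unadjusted p under 0.05, 6 were lower, beside 3.5% of all genes, and 1 was higher, beside 3.02%. Of the 25, 10 were dim. Klf6, a zinc finger factor, ran from 6.67 to 7.59 with a median of 7.04 at the high doses, against 6.96 to 7.77 with a median of 7.27 at the low doses, and differed by -0.23 ± 0.074. Ier2 differed by -0.46 ± 0.164. Klf10 differed by -0.55 ± 0.192, with -0.95 at 94.3 mg/kg and -0.15 at 943 mg/kg. Jun, a subunit of AP-1, differed by -0.64 ± 0.267, the kinase phosphatase gene Dusp1 by -0.73 ± 0.328 and Atf3 by -0.38 ± 0.182, these 3 named after their values were seen. The values of Jun ran from 6.85 to 9.46 with a median of 7.24 at the high doses and from 7.13 to 9.66 with a median of 8.31 at the low doses, so the groups overlapped widely.

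ATF4 targets differed in both directions. Of 31 measured genes 17 were higher and 14 lower. At an unadjusted p under 0.05, 6 were lower, beside 3.5% of all genes, and 2 were higher, beside 3.02%. Both high-dose means lay below all 3 low-dose means in 8 genes, beside 11.2% of all genes, and above them in 0. The genes named here were chosen after their values were seen. Among those lower at an unadjusted p under 0.05, the amino acid transporter Slc38a2 differed by -0.58 ± 0.175, the glutathione-degrading enzyme Chac1 by -0.88 ± 0.365, Ddit3, a stress factor also called CHOP, by -0.22 ± 0.0759, and Atf4 itself by -0.29 ± 0.125. Fgf21, a fasting and stress hormone, ran from 5.21 to 9.51 with a median of 6.55 at the high doses, against 6.17 to 9.88 with a median of 7.92 at the low doses. It differed by -1.18 ± 0.403 (limma adjusted p = 0.674), and 5 of 12 livers lay below the low-dose range. The serine synthesis enzyme Psph was higher by 0.21 and the translation repressor Eif4ebp1 by 0.15. Asns, Psat1 and Phgdh, which make asparagine and serine, were higher by 0.47, 0.49 and 0.39 at 94.3 mg/kg and differed by -0.16, -0.08 and -0.12 at 943 mg/kg. Beside vehicle, 28 of the 31 genes had a higher mean at the low doses, with a median of 0.18. At the high doses 19 did, with a median of 0.06. Asns, Psat1 and Phgdh were above vehicle by 0.50, 0.59 and 0.40 at the low doses. At the high doses they were above it by 0.66, 0.80 and 0.53.

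Only 4 probe sets (0.0129%) differed by 2-fold or more, all of them lower at the high doses. Besides Fgf21 they were those of Bhlhe40, a clock-related repressor, Cish, a target and inhibitor of STAT5, and Gadd45g, a stress-induced gene, each chosen after its values were seen. Bhlhe40 ran from 4.82 to 8.05 with a median of 6.14 at the high doses, against 4.91 to 8.45 with a median of 7.44 at the low doses, and differed by -1.01 ± 0.347. Cish ran from 4.21 to 7.62 with a median of 5.22 at the high doses, against 4.85 to 7.83 with a median of 7.05 at the low doses, and differed by -1.01 ± 0.353. Gadd45g ran from 5.94 to 8.85 with a median of 7.19 at the high doses, against 6.42 to 9.38 with a median of 8.62 at the low doses, and differed by -1.01 ± 0.335. All 4 had limma adjusted p values of 0.673 or 0.674, and in each the groups overlapped over most of their range.

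Several lists had medians of opposite sign at the high doses. Those described here were picked for it, so their counts of genes with opposite signs follow in part from that choice. The genes share the same livers and low-dose means, so these counts are not independent observations. Ribosome biogenesis, the making of ribosomes in the nucleolus, had a median difference from the low doses of 0.12 at 94.3 mg/kg and -0.07 at 943 mg/kg. Of its 40 genes 30 were higher at 94.3 mg/kg and lower at 943 mg/kg, beside 21.6% of all genes. Such genes cannot have both high-dose means on 1 side of the low-dose means, and 0 of the 40 did. The mean of the list ran from 7.05 to 7.19 at 943 mg/kg, against 7.15 to 7.47 at 94.3 mg/kg, and all 6 livers at 943 mg/kg lay below 5 of the 6 at 94.3 mg/kg. Nolc1, a nucleolar phosphoprotein, was higher by 0.29 at 94.3 mg/kg and differed by -0.12 at 943 mg/kg, and Wdr12 gave 0.27 and -0.10, both named after their values were seen. The aminoacyl-tRNA synthetases showed 16 of 19 genes in the same order, with medians of 0.13 and -0.06. Yars1, the tyrosine enzyme, named after its values were seen, was higher by 0.27 at 94.3 mg/kg and differed by -0.08 at 943 mg/kg.

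Heat shock chaperones had this order in 10 of 19 genes, with medians of 0.05 and -0.04. Interferon response genes had it in 18 of 30, with medians of 0.05 and -0.18, and 0 of the 30 differed at an unadjusted p under 0.05 over both high doses. The spread between animals was large for these genes, with a list mean from 6.02 to 7.25 in the high-dose livers and from 6.02 to 7.39 in the low-dose livers. The median over both high doses was -0.06, reaching -0.12 without 943 mg/kg replicate 6 and 0.0057 without 94.3 mg/kg replicate 1. Kupffer cell and macrophage markers had the same order in 8 of 13 genes, beside 21.6% of all genes, with medians of 0.09 at 94.3 mg/kg and -0.01 at 943 mg/kg, and lymphocyte markers in 7 of 17, with medians of 0.03 and -0.03. Their part in the interferon values was not tested. Herc6 was dim and differed by -0.26 ± 0.17, or -0.17 without 943 mg/kg replicate 1. Cxcl10, a T cell chemokine, differed by -0.23 ± 0.173, Cxcl11 by -0.10 and Parp14 by -0.09. Directly between 943 and 94.3 mg/kg, limma called 0 of 31042 probe sets, 1841 (5.93%) had an unadjusted p under 0.05, and the lowest adjusted p was 0.0700.

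**Figure D4:**
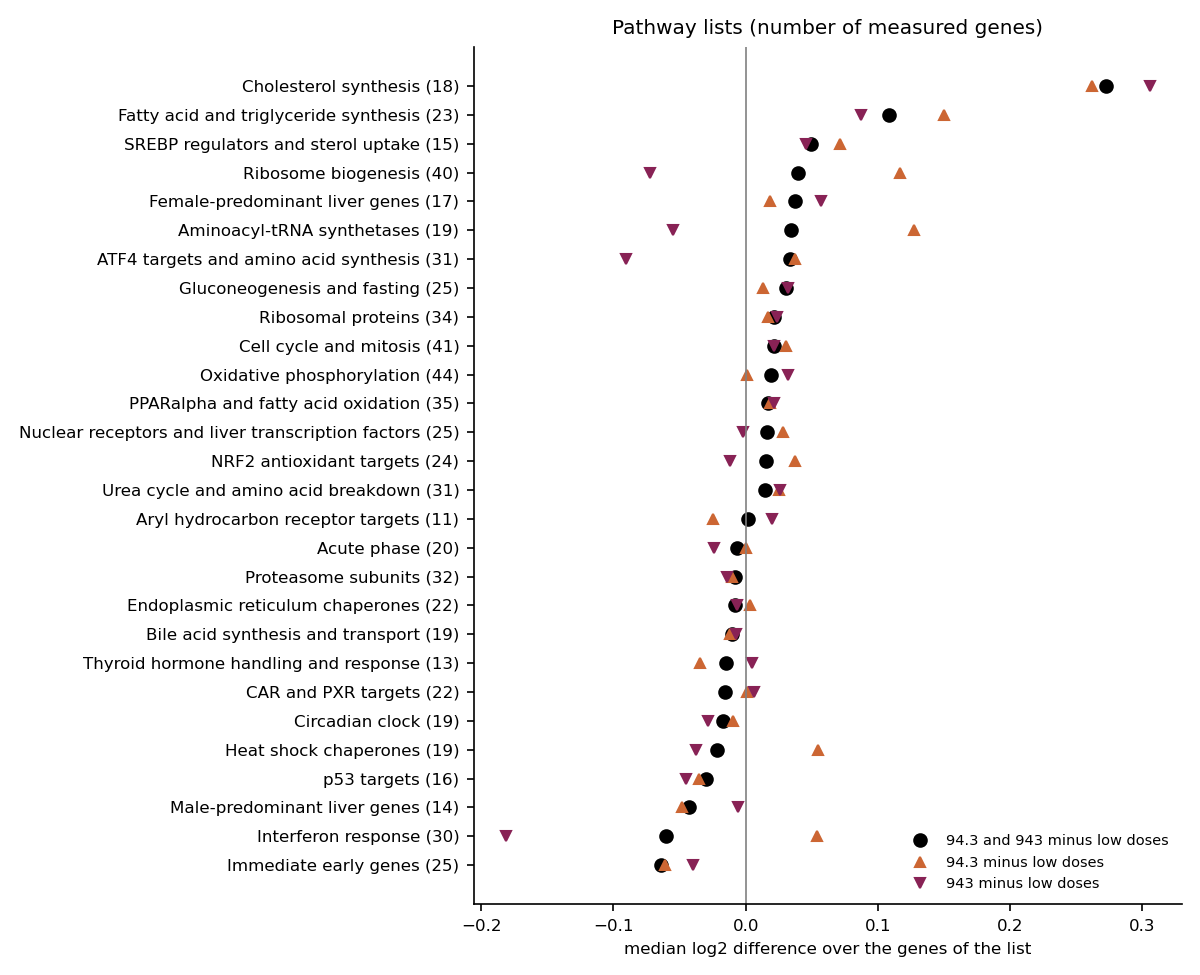
Median log2 difference from the low doses of the 28 pathway lists, for both high doses together (black), 94.3 mg/kg alone (orange) and 943 mg/kg alone (purple). Cholesterol synthesis lies at 0.27, and ribosome biogenesis, the synthetases and interferon response have 94.3 mg/kg to the right of 0 and 943 mg/kg to the left.

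Genes that commonly respond to foreign compounds in liver had differences of small size. Cyp1a1, the classic target of the aryl hydrocarbon receptor, ran from 3.92 to 4.54 with a median of 4.17 at the high doses, against 3.86 to 4.18 with a median of 4.05 at the low doses. It differed by 0.13 ± 0.0488 (limma adjusted p = 0.689) and was dim. Its dose means were 3.88 in vehicle livers, 4.0 at 0.1 mg/kg, 4.02 at 0.94 mg/kg, 4.09 at 9.4 mg/kg, 4.11 at 94.3 mg/kg and 4.22 at 943 mg/kg. Cyp1a2, another target, was higher by 0.10, with 0.04 at 94.3 mg/kg and 0.17 at 943 mg/kg. Against vehicle, Cyp1a2 differed by 0.02 at the high doses and by -0.08 at the low doses. Of the drug oxidases under the pregnane X receptor, Cyp3a23-3a1 differed by -0.02 ± 0.0527 and Cyp3a2 by 0.01 ± 0.03. The PPARalpha target Cyp4a1 differed by 0.01 ± 0.106, and the NRF2 targets Nqo1 and Hmox1 by -0.01 ± 0.0772 and -0.01 ± 0.0682. Gclc, the glutathione synthesis enzyme, was higher by 0.10, and by 0.17 ± 0.0738 in its other probe set (unadjusted p = 0.0261). Ugt2b1 differed by -0.07, Por by -0.03 with another probe set at 0.0047, and Abcc3 by -0.02.

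Other response genes covered thyroid hormone, bile acid, fasting and damage pathways. Dio1, the deiodinase, differed by -0.10 ± 0.0511, and Cyp7a1, which starts the main route from cholesterol to bile acids, by 0.36 ± 0.25, with 0.69 at 94.3 mg/kg and 0.03 at 943 mg/kg. Pdk4, which limits glucose oxidation in fasting, differed by -0.40 ± 0.148, with its other probe set at -0.16 ± 0.109. Pck1, a gluconeogenic enzyme, differed by 0.21 ± 0.121 and Angptl4 by -0.06. Cdkn1a and Mdm2, which p53 switches on, differed by 0.02 and -0.05, and the proliferation marker Mki67 by -0.02. Slc7a11, the cystine importer, was dim and was higher by 0.76 ± 0.216 at 94.3 mg/kg, with a difference of -0.16 at 943 mg/kg. Its median was 3.85 at the high doses and 3.79 at the low doses. Of the 12 high-dose livers, 2 lay above the low-dose range and 3 below it. Over both high doses Slc7a11 differed by 0.30, and by 0.14 without 94.3 mg/kg replicate 5. Trib3, an ATF4 target, differed by -0.19.

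Growth hormone dependent, male-predominant genes had a median of -0.04, with 3 of 14 higher, beside 50.8% of all genes. At an unadjusted p under 0.05, 0 were higher or lower, beside 3.02% and 3.5% of all genes. Their differences ran from -0.15 to 0.55. The median was -0.02 without 943 mg/kg replicate 6. Ust5r, Slco1a1, Hsd17b2 and Rgn differed by -0.07, -0.07, -0.15 and -0.03. The 22 pathway lists not described in full had medians between -0.03 and 0.04. The 10 lists of cell type markers had medians between -0.05 and 0.04. Of their 137 measured members, 1 was higher, beside 3.02% of all genes, and 1 lower, beside 3.5%, at an unadjusted p under 0.05. Many markers were dim, with 10 of 17 for lymphocytes, 8 of 11 for neutrophils and 12 of 14 for pancreatic acinar cells. Dim markers numbered 0 of 19 for hepatocytes and 0 of 13 for Kupffer cells. The mean of the Kupffer cell list ran from 7.73 to 8.34 in the high-dose livers and from 7.57 to 8.36 in the low-dose livers, and that of the neutrophil list from 3.63 to 4.0 in the high-dose livers and from 3.48 to 4.41 in the low-dose livers. The part of cell makeup in the differences above was not tested.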

How the data were processed

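Per the labels' protocols, left liver lobe RNA was amplified, labelled with biotin and hybridised to single-colour Affymetrix arrays. The authors deposited 1 log2 expression value for each probe set and array. The submitters' processing notes name RMA and the affy package, with versions not given in the sources used here. RMA compresses dim signals, so differences of dim genes, those with both group means under every array median, are uncertain in size.

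Of the probe sets, 57 array controls were set aside and 31042 were tested without a filter on signal, of which 20826 name 1 gene, 436 several and 9780 none in the probe table. A mean per dose group was fitted to 30 arrays with limma 3.58.1 in R 4.3.3 (moderated by eBayes), and the mean of 0.1, 0.94 and 9.4 mg/kg was subtracted from that of 94.3 and 943 mg/kg. P values are two-sided, adjusted by the Benjamini-Hochberg method over all probe sets, with a threshold of 0.05. Errors are moderated standard errors, and the number of animals limits the precision. Where nothing names separate animals, p values measure the spread between samples.

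Named genes are the 10 with the smallest p in each direction, since 0 passed, 4 members with the smallest p of each of the 6 lists with the largest absolute median, all measured cholesterol synthesis genes, and 30 of 35 response genes. Others are said to be chosen after their values were seen. The comparison, its 38 lists and the response genes were chosen with earlier results of these data known. Same-numbered replicates had deviations with a mean correlation of 0.013 (range -0.27 to 0.29). No pairing by number was detected, which does not exclude one. Alternatives were a 1.5-fold minimum, the upper 50% of probe sets, a variance trend, array weights, a replicate block, renewed normalization or centring, an ordinary linear model, 1 probe set per gene, all 36 arrays, and leaving out arrays or dose groups.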

Additional observations from a re-analysis of the deposited data

Results flagged for a closer look

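Within a dose group of 6 animals, 26 of 415 gene and dose combinations held 1 value that stood apart from the other 5 by Dixon's test. Chance gives about 1 in 20, so this number is close to the chance share. Cholesterol synthesis genes moved together from animal to animal, so the combinations are not independent. A single liver can therefore be flagged for several genes at once. The animal that recurred most was 94.3 mg/kg replicate 1, with log2 values for Pnpla3 at 3.23, Net1 at 10.43, Acly at 9.47, Fasn at 8.15, Pck1 at 11.90 and Nsdhl at 10.54. Its values were the lowest of its dose for all of these but Net1, where it was the highest. Next came 0.94 mg/kg replicate 2, the lowest of its dose for Acss2 at 8.55, Abcg8 at 4.86, Mdm2 at 6.85, Acat2 at 7.42 and Idi1 at 9.51. At 0.1 mg/kg, single values that stood apart were Slco1a1 at 9.37 in replicate 6, Cyp3a2 at 13.30 in replicate 2, Slc7a11 at 4.79 in replicate 2, and Pdk4 at 9.37 in replicate 1. At 0.94 mg/kg, single values that stood apart were Dgkk at 2.53 in replicate 1, Mbtps2 at 6.24 in replicate 6, and Cyp7a1 at 8.61 in replicate 5. At 9.4 mg/kg, single values that stood apart were Net1 at 9.14 in replicate 4, Cyp4a1 at 10.17 in replicate 4, Slc7a11 at 4.25 in replicate 4, and Mvd at 7.67 in replicate 2. At 94.3 mg/kg, single values that stood apart were Slc30a10 at 8.18 in replicate 3 and Abcg8 at 5.42 in replicate 2. At 943 mg/kg, single values that stood apart were Pla2g2a at 5.09 in replicate 3 and Pck1 at 12.54 in replicate 5. The cause was not tested. Without 94.3 mg/kg replicate 1 and 0.94 mg/kg replicate 2, limma called 0 probe sets between the high and low doses, and 16 cholesterol synthesis genes were higher at an unadjusted p under 0.05.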

How the results depend on the processing

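Of 83 named genes, 68 kept the sign of their difference under every alternative that left out no single array, and 67 under every alternative run. The count of limma calls between the high and low doses was 0 under each alternative that left out no single array and ranged from 0 to 6 when 1 array was left out. For 94.3 mg/kg against the low doses it was 2 with array weights and ranged from 0 to 46 when 1 array was left out, and for 943 mg/kg it stayed at 0. The replicate block changed no call, with 0 between the high and low doses. Cholesterol synthesis genes higher at an unadjusted p under 0.05 numbered 10 without the 0.94 mg/kg group and 14 to 17 when 1 array was left out. That count and the run without both 94.3 mg/kg replicate 1 and 0.94 mg/kg replicate 2 were chosen after seeing the data. Some differences changed sign. Cyp4a1 was -0.029 with array weights, -0.012 without 943 mg/kg replicate 1, the array least correlated with the others, and -0.065 without the 0.94 mg/kg group, where Hsd17b2 was 0.045. Renewed quantile normalization gave Hmox1 0.0044. Without 943 mg/kg replicate 1, Nqo1 was 0.020. Without 0.1 mg/kg, Cyp3a23-3a1 was 0.011, Nqo1 0.0072 and Abcc3 0.071. Without 9.4 mg/kg, Cxcl10 was 0.0045, Nqo1 0.038, Hmox1 0.067, Cdkn1a -0.041, Mki67 0.13 and Angptl4 0.077. Without 94.3 mg/kg, Cyp3a23-3a1 was 0.055, Nqo1 0.020, Asns -0.16, Psat1 -0.077, Phgdh -0.12, Slc7a11 -0.16, Cdkn1a -0.086 and Angptl4 0.21. Without 943 mg/kg, Hmox1 was 0.14, Abcc3 0.085 and Por 0.044. Without both 94.3 mg/kg replicate 1 and 0.94 mg/kg replicate 2, Abcc3 was 0.0097 and Mki67 0.0037. Leaving out 1 array gave ranges of -0.075 to 0.019 for Abcc3, -0.016 to 0.076 for Cdkn1a, -0.00080 to 0.018 for Cyp3a2, -0.033 to 0.0066 for Cyp3a23-3a1, -0.032 to 0.051 for Cyp4a1, -0.037 to 0.017 for Hmox1, -0.055 to 0.038 for Mki67 and -0.046 to 0.020 for Nqo1. Where a dose group was left out, the construction changes both the contrast and its number of animals; the cause was not tested otherwise. Dim genes limit the precision on these arrays.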

Other observations

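Female-predominant liver genes, which growth hormone secretion also governs, had a median difference of 0.04 on the log2 scale, with 12 of 17 higher at the high doses, beside 50.8% of all genes. The median was 0.02 without 94.3 mg/kg replicate 1 and 0.08 without 943 mg/kg replicate 6. At an unadjusted p under 0.05, 2 were higher, beside 3.02% of all genes, namely Prlr, the prolactin receptor, by 0.36 ± 0.167 and Cyp2c7, a steroid and drug oxidase, by 0.14 ± 0.0585, and Cyp2c22 differed by -0.18 ± 0.0571. Of 44 oxidative phosphorylation genes 33 had a difference above 0, beside 50.8% of all genes, with a median of 0.02, or 0.01 without 94.3 mg/kg replicate 3. None of the 44 had an unadjusted p under 0.05. Among heat shock genes, the co-chaperone Bag3 was higher by 0.16 ± 0.0574 and the transcription factor Hsf1 by 0.09 ± 0.0421. Tiparp, a target and repressor of the aryl hydrocarbon receptor, differed by -0.32 ± 0.106, a sign opposite to that of Cyp1a1, and the bile pigment exporter Abcc2 by -0.15 ± 0.0593. None of the genes with values here passed limma's test over all probe sets, where their adjusted p values lay between 0.659 and 0.729, and their names were chosen after their values were seen.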
